A study of Mus musculus with 6 samples.

Results

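The RNA polymerase, Integrator and Mediator complexes are described here through the subunit genes measured on liver arrays of 8-week-old male mice. Members were the probe sets whose platform symbol begins with Polr, Ints or Med and a digit, without pseudogenes, with the brightest probe set kept for each gene. This gave 65 genes of 30145 named ones: 25 of RNA polymerase, 11 of Integrator and 29 of Mediator. Probe sets with several symbols name no gene, so 4 matching ones (3 of subunits and 1 of an antisense RNA) were left out. Liver RNA of 6 mice was hybridised to 1 array each. The 3 mice titled HFD-inulin were offspring of mothers treated with inulin, a fermentable plant fibre, and the 3 titled HFD were offspring of mothers on a high-fat diet. Since HFD stands in both titles, the groups are not read as inulin in place of that diet. The labels name no strain, inulin dose or timing, offspring diet or litter. Mice within a group may therefore share a mother, and a p-value here reflects only variation among 6 arrays, technical variation included.

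Nuclear genes are read by distinct polymerases. RNA polymerase I makes the large ribosomal RNA precursor, RNA polymerase II makes messenger RNA and many noncoding RNAs, and RNA polymerase III makes transfer RNA, the small ribosomal RNA and other short RNAs. Some subunits are shared between the enzymes. Mediator bridges transcription factors and polymerase II. Its core of head, middle and tail modules is joined reversibly by a kinase module. Integrator binds polymerase II soon after initiation, cleaves the nascent RNA of small nuclear RNA genes and of many paused genes, and carries a protein phosphatase. In liver, the Mediator subunit MED1 binds nuclear receptors, among them those of the PPAR family.

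The values are the authors' deposited log2 signals, whose brightness depends on the probes as well as on the RNA, so levels were compared between arrays and never between genes. The arrays did not group by maternal treatment. The first principal component, with 53.1% of the variance over 65956 probe sets, placed HFD-inulin 3 with HFD 2 and HFD 3, and placed HFD-inulin 1 and 2 with HFD 1. Hepatocyte markers were bright in every array, with albumin (Alb) between 11.4 and 11.6. The 8 acute phase genes deviated from the mean of the HFD arrays by 2.01, 3.12 and -0.24 on average in HFD-inulin 1 to 3. The 9 neutrophil markers averaged 0.45 in HFD-inulin 2 and -0.03 to 0.05 in the other arrays. In HFD-inulin 2, 5 of 9 lay above their HFD mean, the median was 0.09, and S100a8 measured 2.33 against an HFD mean of 0.62. These neutrophil probe sets were dim, with mean signals of 0.95 to 1.94 (median probe set 1.22). The 4 cholangiocyte markers averaged 0.43 in HFD-inulin 2, where 4 of 4 lay above their HFD mean with a median of 0.26. Elsewhere they averaged -0.11 to 0.06. The 9 hepatocyte markers averaged -0.27, -0.16 and -0.12 in HFD-inulin 1 to 3 and -0.05 to 0.08 in HFD. Their medians in HFD-inulin 1 to 3 were -0.15, -0.19 and -0.02. In HFD-inulin 3, Hnf4a was furthest from its HFD mean, at -0.65, and 2 of 9 lay above theirs. An unadjusted limma p under 0.05 was found for 3 of 9, all lower: Hnf4a (-0.60), Cps1 (-0.68) and Apob (-0.17). Over all arrays 2 of 9 had a higher mean, Apoa1 (0.14) and Fgb (0.17). The averages of the remaining lists overlapped between groups. For 8 Kupffer cell markers they were -0.26 to -0.07 in HFD-inulin and -0.10 to 0.07 in HFD. The 7 lymphocyte markers averaged -0.30 to -0.12, against -0.13 to 0.18, and the 7 endothelial markers -0.11 to -0.06, against -0.06 to 0.10. The 7 stellate cell markers averaged -0.15 to 0.06, against -0.10 to 0.06, and the 4 adipose markers -0.05 to -0.02, against -0.02 to 0.02. Of single markers, 2 of 8 Kupffer cell and 1 of 7 endothelial ones had an unadjusted limma p under 0.05, all lower. In the hepatocyte list 3 markers were lower without overlap. In the Kupffer cell, lymphocyte, endothelial and adipose lists it was 1 marker each, the adipose one (Adipoq) with a dim mean signal of 0.82. In all of these lists 0 were higher without overlap. Of all 65956 probe sets, 3971 were lower without overlap. The part of these array differences in the results below was not tested. Values without HFD-inulin 3 or within a set of arrays are given for the complexes and for the genes with the largest differences.

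Most subunit genes had a higher mean in the HFD-inulin livers, by small amounts, and none passed the test. The mean was higher for 52 of 65 members, against 43.5% of all probe sets and 52.3% of the 17465 named genes at least as bright as the dimmest member (mean log2 signal 1.46). The median log2 difference was 0.08 over the members and 0.01 over those genes. By complex it was 0.11 for RNA polymerase, where 23 of 25 genes were higher, 0.10 for Integrator, with 9 of 11, and 0.07 for Mediator, with 20 of 29. Leaving out 1 array moved these medians to between 0.07 and 0.17, 0.05 and 0.20, and 0.01 and 0.11, in each case lowest without HFD-inulin 2 and highest without HFD-inulin 3. In limma (two-sided, Benjamini-Hochberg adjustment over all probe sets) 0 of 65 members had an adjusted p under 0.05, as did 0% of all probe sets, and the smallest adjusted p of a member was 0.902. Ordinary least squares also called 0. Without adjustment 4 members lay under 0.05, all higher in HFD-inulin: Polr2b, Polr2c, Ints10 and Med8. That is 4 of 65, where 2.52% of all probe sets and 5.46% of the comparably bright genes were higher with such a p. The groups did not overlap for 9 members, all higher in HFD-inulin, where the same held for 4.32% of all probe sets and 7.45% of the comparably bright genes. In either direction, the groups were apart for 13.8% of members, 10.3% of all probe sets and 13.3% of the comparably bright genes. Without HFD-inulin 3 they were apart for 34 members (52.3%, against 27.0% of all probe sets and 38.3% of the comparably bright genes). Without HFD 1 they were apart for 19 (29.2%, against 23.4% of all probe sets and 26.5% of the comparably bright genes). Without HFD 3 they were apart for 16 (24.6%, against 17.8% and 19.3%). After quantile normalization the groups were apart for 4 (6.15%, against 9.57% and 10.6%). The count was 10 without HFD-inulin 1 (15.4%, against 19.0% and 22.5%). It was 12 without HFD-inulin 2 (18.5%, against 18.8% and 20.4%) and 12 without HFD 2 (18.5%, against 18.3% and 21.0%). The 9 were Polr1c, Polr1e, Polr2a, Polr2b, Polr2c, Polr2j, Polr3g, Ints10 and Med8. In bulk tissue, fewer cells of a type and less RNA per cell cannot be told apart.

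**Figure D1:**
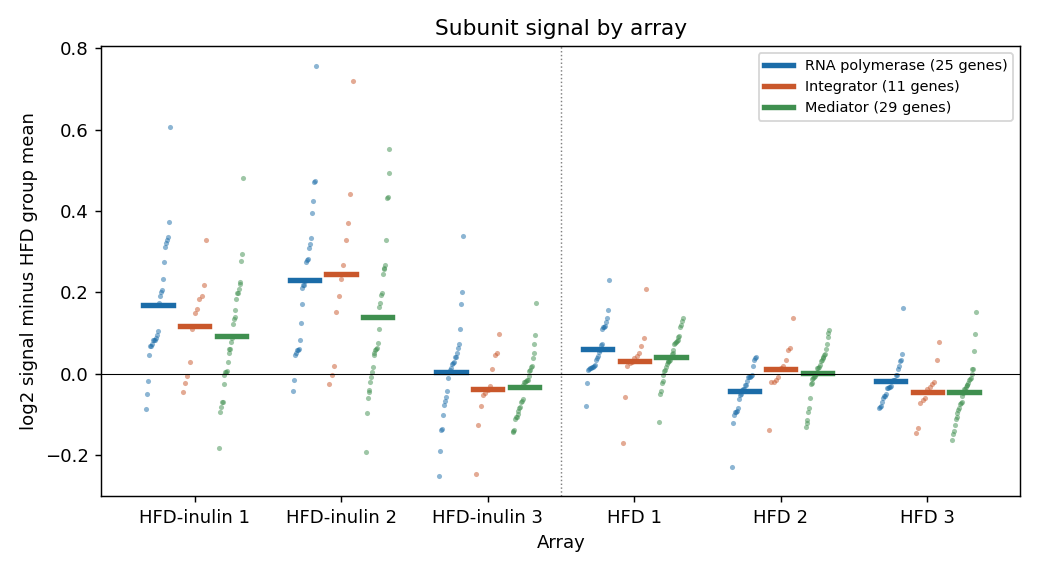
Each point is 1 subunit gene on 1 array, as its log2 signal minus the mean of the 3 HFD arrays (vertical axis), and the horizontal axis lists the 6 arrays; thick bars are the mean over the genes of a complex. HFD-inulin 1 and 2 are the highest arrays for every complex, with means of 0.17 and 0.23 for RNA polymerase, while HFD-inulin 3 lies among the HFD arrays.

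HFD-inulin 1 and 2 were the high arrays in each complex. Relative to the mean of the HFD arrays, RNA polymerase genes averaged 0.17, 0.23 and 0.01 in HFD-inulin 1 to 3 and 0.06, -0.04 and -0.02 in HFD 1 to 3. Integrator genes averaged 0.12, 0.24 and -0.04 in HFD-inulin 1 to 3 and 0.03, 0.01 and -0.04 in HFD 1 to 3. Mediator genes averaged 0.09, 0.14 and -0.03, against 0.04, 0.0020 and -0.04. HFD-inulin 3 thus overlapped the HFD arrays in every complex. The comparably bright genes averaged 0.03, 0.05 and 0.0042 in HFD-inulin 1 to 3 and 0.02, -0.02 and -0.00099 in HFD 1 to 3. HFD-inulin 1 and 2 were thus also their highest arrays, by smaller amounts. HFD-inulin 2 was the highest of the 6 arrays for 37 of 65 members, HFD-inulin 1 for 14, and HFD-inulin 3 for 2, which were Polr2a and Polr2b. The lowest array was HFD 3 for 22 members, HFD-inulin 3 for 21 and HFD 2 for 15. Without HFD-inulin 3, 20 members had an unadjusted limma p under 0.05 (9.89% of all probe sets did so in that fit) and 0 an adjusted one. Without HFD 2 the unadjusted count was 2 (3.18% of all probe sets).

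**Figure D2:**
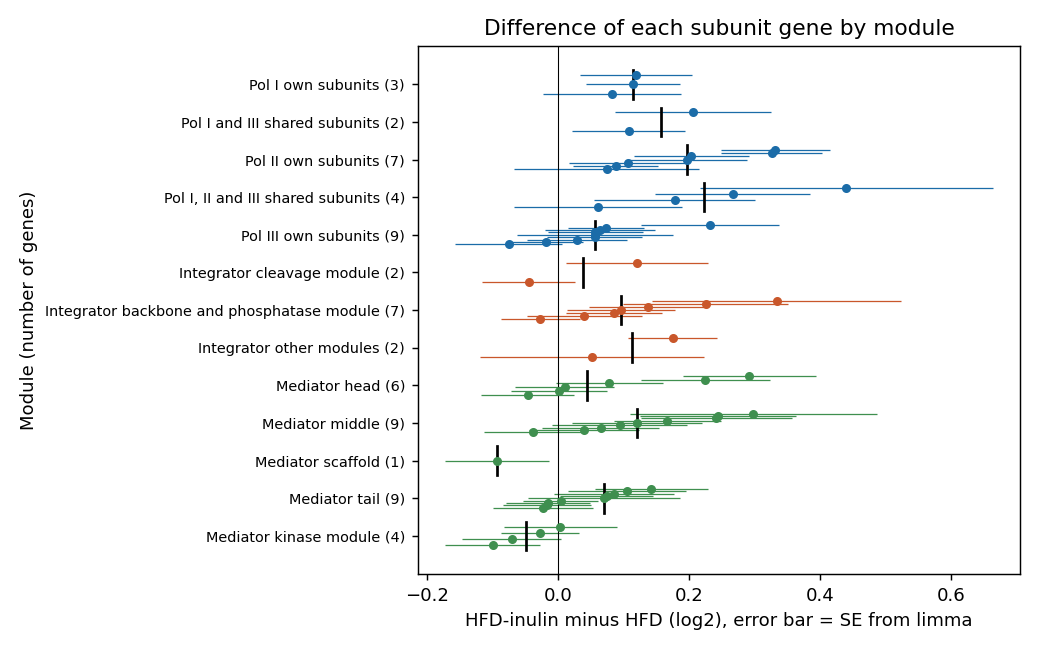
Log2 difference of each subunit gene, HFD-inulin minus HFD (horizontal axis, points with the SE from limma), sorted by module on the vertical axis with the number of genes; black bars are medians. Every point of the Pol II and shared modules lies above 0, while 3 of 4 kinase module genes and the scaffold gene lie below it.

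Polymerase II showed the members furthest from 0 relative to their error. Polr2b encodes the second-largest subunit, which forms the active centre together with the largest. Its log2 signal was 5.20, 5.18 and 5.21 in HFD-inulin 1 to 3 and 5.01, 4.82 and 4.79 in HFD 1 to 3. All HFD-inulin arrays were above all HFD arrays, and HFD-inulin 3 was the highest of the 6. The means were 5.20 ± 0.01 and 4.87 ± 0.12 (SD, n = 3), a difference of 0.33 (SE 0.08, 95% interval 0.14 to 0.51, limma unadjusted p = 0.00444, adjusted p = 0.902). Polr2c encodes RPB3, which pairs with RPB11 at the start of enzyme assembly. It measured 4.99, 5.14 and 4.87 in HFD-inulin 1 to 3 and 4.64, 4.66 and 4.70 in HFD 1 to 3, again without overlap. The difference was 0.33 (SE 0.08, 95% interval 0.13 to 0.53, limma unadjusted p = 0.00598, adjusted p = 0.902). The gene of its partner RPB11, Polr2j, measured 4.63, 4.73 and 4.435 in HFD-inulin 1 to 3 and 4.425, 4.39 and 4.36 in HFD 1 to 3. The groups were barely apart, and the difference was 0.20 (SE 0.09).

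The promoters of Polr2b and Polr2c are shown because these genes had the smallest unadjusted p among all members, with that of Med13, a kinase module gene with a lower mean, for contrast. They are RefSeq sequences of GRCm38.p6 from 250 bases before to 50 bases after the annotated start. Polr2b lies at chr5:77310234-77310533 on the plus strand, Polr2c at chr8:94857200-94857499 on the plus strand and Med13 at chr11:86357547-86357846 on the minus strand. Capitals mark matches on either strand to any of 7 motifs. The TATA box was searched as TATAAA and the CCAAT box by the letters of its name. The letters for the GC box of SP1 and related factors were GGGCGG. Those for ETS factors were CCGGAAG. The palindrome of NRF1, a regulator of respiratory and growth genes, was searched as GCGCATGCG. The E-box of MYC and USF factors was CACGTG. The letters for YY1 were AAGATGGC.
Polr2b: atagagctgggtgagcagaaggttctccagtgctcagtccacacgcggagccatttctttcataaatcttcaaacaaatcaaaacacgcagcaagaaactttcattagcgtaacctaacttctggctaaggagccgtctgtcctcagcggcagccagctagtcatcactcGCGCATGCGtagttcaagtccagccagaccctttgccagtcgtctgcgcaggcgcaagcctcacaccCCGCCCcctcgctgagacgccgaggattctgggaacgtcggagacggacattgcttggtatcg
Polr2c: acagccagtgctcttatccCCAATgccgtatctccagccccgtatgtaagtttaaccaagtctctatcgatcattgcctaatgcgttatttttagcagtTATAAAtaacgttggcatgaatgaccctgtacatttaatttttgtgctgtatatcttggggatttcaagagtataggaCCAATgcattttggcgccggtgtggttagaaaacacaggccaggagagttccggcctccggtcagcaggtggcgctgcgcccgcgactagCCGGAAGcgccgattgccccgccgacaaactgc
Med13: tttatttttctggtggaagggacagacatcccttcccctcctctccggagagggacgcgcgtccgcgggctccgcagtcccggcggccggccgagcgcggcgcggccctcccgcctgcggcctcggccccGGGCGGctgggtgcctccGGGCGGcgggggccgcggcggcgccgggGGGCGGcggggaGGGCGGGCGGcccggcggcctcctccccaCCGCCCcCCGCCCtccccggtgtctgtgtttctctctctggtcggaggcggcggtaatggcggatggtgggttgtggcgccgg

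In Polr2b an NRF1 match began at position -80, counted from 0 at the annotated start, and a GC box match on the opposite strand at -13. Polr2c held CCAAT matches at -231 and -73, a TATA match at -151 and an ETS match at 17. Med13 held 7 GC box matches, 1 pair of them overlapping, and no match to the other motifs. The RefSeq table held promoters for 53 of 65 members, and the first listed start was used for the 5 with several. Overlaps between motifs were allowed, and the 3 promoters shown hold 0 overlaps of different motifs. An ETS match occurred in 16 of 53 (30.2%), against 15.4% of 10644 comparably bright genes with a promoter and 9.12% of all 27025 genes. For NRF1 the shares were 11.3% of members, 3.02% and 1.81%, and for the GC box 60.4%, 59.2% and 35.9%. TATA matches were in 5 of 53 members (9.43%, against 7.96% of comparably bright genes and 14.2% of all). CCAAT matches were in 39.6% of members, 37.3% of comparably bright genes and 37.9% of all, E-box matches in 13.2%, 9.56% and 7.24%, and YY1 matches in 1.89%, 4.16% and 2.88%. A median member promoter held 22 CG dinucleotides, against 19 in comparably bright genes. A match is a run of letters in this window and was not tested for binding. By complex, ETS matches were in 7 of 21 RNA polymerase, 2 of 7 Integrator and 7 of 25 Mediator promoters.

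**Figure D3:**
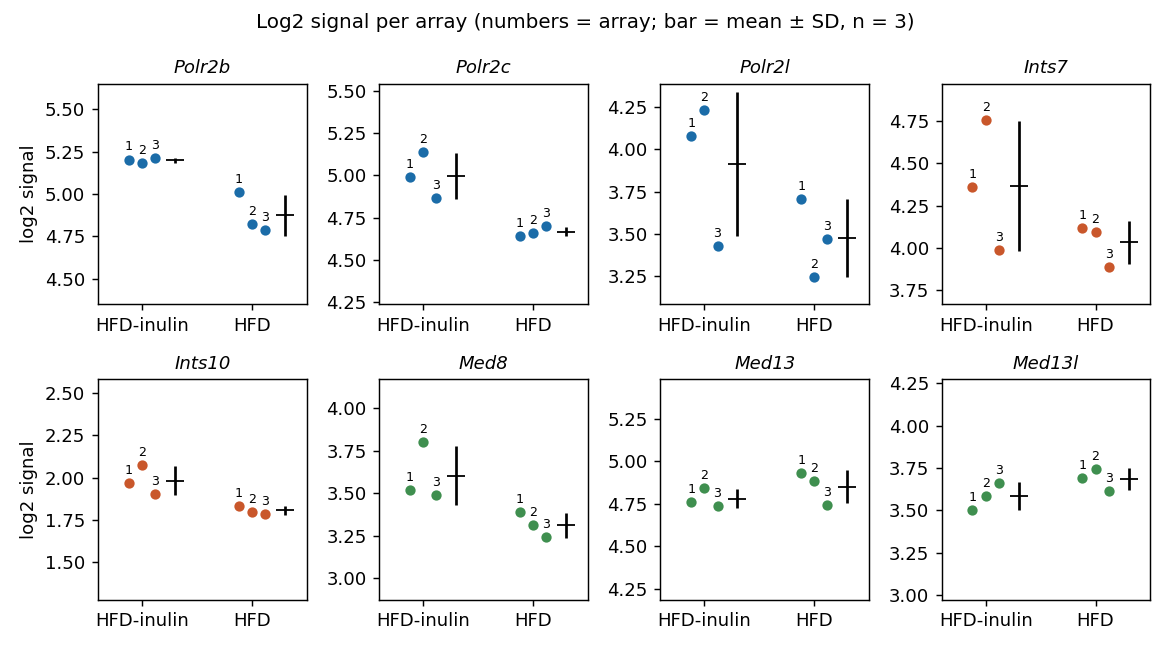
Log2 signal of 8 subunit genes on each array (points, numbered by array within the group; vertical axes span the same range in log2 units), with the mean ± SD of 3 arrays beside each group. Polr2b, Polr2c, Ints10 and Med8 do not overlap between groups, whereas HFD-inulin 3 falls within the HFD range for Polr2l and Ints7.

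Polr2a encodes the largest polymerase II subunit, with the carboxy-terminal repeats that are phosphorylated during the transcription cycle. It measured 4.59, 4.59 and 4.72 in HFD-inulin 1 to 3 and 4.57, 4.54 and 4.53 in HFD 1 to 3. The groups did not overlap, but the difference was 0.09 (SE 0.06) and its 95% interval ran from -0.07 to 0.24. Polr2d, whose product pairs with RPB7 in the stalk, measured 3.23, 3.32 and 2.79 against 3.05, 2.99 and 3.07, so that HFD-inulin held both its highest and its lowest array. Its difference of 0.07 (SE 0.14) was positive without HFD-inulin 3, at 0.24, and negative without HFD-inulin 2, at -0.03. All 7 genes of subunits that only polymerase II holds had a higher mean after maternal inulin (median 0.20), and 4 of them were apart between groups. The median was 0.18 both between HFD-inulin 1 and 2 and HFD 1 and between HFD-inulin 3 and HFD 2 and 3.

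Subunits shared by all 3 enzymes followed the arrays more closely. Polr2l, the gene of the small zinc-binding subunit RPB10, had the largest difference of any member. Its signal was 4.08, 4.23 and 3.43 in HFD-inulin 1 to 3 and 3.71, 3.25 and 3.47 in HFD 1 to 3. HFD-inulin 3 lay inside the HFD range, and the difference of 0.44, a 1.36-fold ratio, had an SE of 0.22 and a 95% interval from -0.10 to 0.98 (limma adjusted p = 0.902). Polr2h, for RPB8, measured 3.63, 3.74 and 3.38 against 3.24, 3.24 and 3.48, a difference of 0.27 (SE 0.12). HFD-inulin 3 lay below HFD 3, and the difference was 0.02 in HFD-inulin 3 against HFD 2 and 3. Polr2e, for RPB5, had the smallest difference of these 4 genes, 0.06 (SE 0.13), which turned to -0.08 without HFD-inulin 1. The median of the 4 was 0.22 over all arrays, 0.31 in HFD-inulin 1 and 2 against HFD 1, and 0.01 in HFD-inulin 3 against HFD 2 and 3.

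The 3 member genes of subunits that only polymerase I holds had positive differences, with a median of 0.11. That median was 0.14 in HFD-inulin 1 and 2 against HFD 1 and 0.02 in HFD-inulin 3 against HFD 2 and 3. Polr1a and Polr1b, the genes of the catalytic large subunits of polymerase I, differed by 0.12 (SE 0.08) and 0.08 (SE 0.10), with overlap between groups. Polr1a measured 3.58, 3.79 and 3.53 in HFD-inulin 1 to 3 and 3.53, 3.54 and 3.46 in HFD 1 to 3. Polr1c and Polr1d encode the pair that serves polymerases I and III as RPB3 and RPB11 serve polymerase II. Polr1c measured 4.16, 4.57 and 4.16 against 4.11, 4.06 and 4.10, so the groups were apart and HFD-inulin 2 stood well above the rest. The difference of 0.21 (SE 0.12) was 0.07 without that array. Polr1d differed by 0.11 (SE 0.09). Polr1e, named after its values were seen, encodes an initiation subunit and measured 1.60, 1.75 and 1.57 against 1.54, 1.55 and 1.49, a difference of 0.11 (SE 0.07). These signals are close to the median probe set (1.22). Some subunits of polymerases I and III stand on the array under older symbols and are no members. Twistnb, now called Polr1f, differed by 0.38 (SE 0.15) and Znrd1, now called Polr1h, by 0.29 (SE 0.13), both with overlap between groups (limma adjusted p = 0.902 for each). Twistnb was 0.53 without HFD-inulin 3 and -0.01 in HFD-inulin 3 against HFD 2 and 3. Cd3eap, of polymerase I, differed by -0.03 (SE 0.06), and Crcp, of polymerase III, by -0.11 (SE 0.07).

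Polymerase III genes differed least among the 3 enzymes. Their median difference was 0.06 over 9 genes, 7 of them higher in HFD-inulin, and 0.01 within each set of arrays. Polr3a and Polr3b, for the catalytic large subunits, differed by 0.06 (SE 0.07) and 0.06 (SE 0.08), with 95% intervals of -0.12 to 0.23 and -0.13 to 0.26. Polr3c, whose product helps open the promoter, had the largest difference, with 3.98, 4.10 and 3.73 in HFD-inulin 1 to 3 and 3.78, 3.69 and 3.65 in HFD 1 to 3 (0.23, SE 0.10). HFD-inulin 3 lay below HFD 1 for this gene. Polr3g and Polr3gl are paralogs that occupy the same position in alternative forms of the enzyme. Polr3g measured 2.44, 2.43 and 2.40 against 2.37, 2.31 and 2.37, without overlap but with a difference of 0.07 (SE 0.06). Polr3gl differed by 0.06 (SE 0.07), with overlap. The lowest difference was that of Polr3k, for the subunit active in RNA cleavage and termination, at -0.08 (SE 0.08).

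Of 11 Integrator genes, 8 lay above their HFD mean in HFD-inulin 1, 9 in HFD-inulin 2 and 4 in HFD-inulin 3. Ints10, of the module with INTS13 and INTS14, was the member of this complex without overlap between groups. It measured 1.97, 2.07 and 1.90 in HFD-inulin 1 to 3 and 1.83, 1.80 and 1.79 in HFD 1 to 3, a difference of 0.17 (SE 0.07, 95% interval 0.01 to 0.34, limma unadjusted p = 0.0394, adjusted p = 0.902). Ints7, a backbone gene, had the largest difference. Its signal was 4.36, 4.75 and 3.99 in HFD-inulin 1 to 3 and 4.12, 4.09 and 3.89 in HFD 1 to 3. HFD-inulin 3 lay inside the HFD range, and the difference of 0.33 (SE 0.19) became 0.14 without HFD-inulin 2 and 0.52 without HFD-inulin 3. Ints5 measured 4.20, 4.45 and 4.06 against 3.84, 4.15 and 4.05, a difference of 0.23 (SE 0.13) that was 0.48 in HFD-inulin 1 and 2 against HFD 1 and -0.03 in HFD-inulin 3 against HFD 2 and 3. Ints1, the largest backbone subunit, and Ints2 differed by 0.14 (SE 0.09) and 0.10 (SE 0.08), and by -0.02 and -0.04 in HFD-inulin 3 against HFD 2 and 3. Ints6, which recruits the phosphatase, differed by -0.03 (SE 0.06, 95% interval -0.17 to 0.12), a sign that turned after median centring (0.0056).

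The cleavage module of Integrator holds the endonuclease INTS11 with INTS9 and INTS4. Ints4 differed by 0.12 (SE 0.11) and Ints9 by -0.04 (SE 0.07). Ints9 measured 3.43, 3.43 and 3.30 in HFD-inulin 1 to 3 and 3.37, 3.41 and 3.51 in HFD 1 to 3, so that HFD 3 was highest and HFD-inulin 3 lowest. The endonuclease gene itself is on the array under its older symbol Cpsf3l and is no member by the rule. Cpsf3l measured 3.68, 3.90 and 3.58 against 3.53, 3.43 and 3.45, without overlap, a difference of 0.25 (SE 0.09, limma unadjusted p = 0.0339, adjusted p = 0.902). Of 3 other Integrator genes under older symbols, Asun (now Ints13) differed by 0.13 (SE 0.07) and Vwa9 (now Ints14) by 0.11 (SE 0.09), both with overlap. Ddx26b (now Ints6l) was lower without overlap, at -0.09 (SE 0.06), but its signals of 0.86 to 1.02 lay below the median probe set (1.22). Ints3, which also serves in a complex that binds single-stranded DNA, differed by 0.05 (SE 0.17) and was 4.31 in HFD-inulin 2 and 3.70 in HFD-inulin 3, the extremes of the 6 arrays.

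In the Mediator head and middle a few genes stood above the rest. Med8, a head gene, measured 3.52, 3.80 and 3.49 in HFD-inulin 1 to 3 and 3.39, 3.31 and 3.24 in HFD 1 to 3. The groups did not overlap and the difference was 0.29 (SE 0.10, 95% interval 0.05 to 0.53, limma unadjusted p = 0.0251, adjusted p = 0.902). It was the Mediator gene with the smallest p and stayed between 0.19 and 0.35 when any 1 array was left out. Med6, also of the head, measured 2.03, 2.07 and 1.79 against 1.85, 1.68 and 1.68 (0.22, SE 0.10), with HFD-inulin 3 below HFD 1. Med17, the central head subunit, showed 0.01 (SE 0.08, 95% interval -0.17 to 0.19), and Med22 showed -0.05 (SE 0.07). Over the 6 head genes the median was 0.04, with 5 higher in mean.

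Med21 had the largest difference in Mediator, in the middle module. It measured 3.96, 4.03 and 3.34 in HFD-inulin 1 to 3 and 3.53, 3.57 and 3.33 in HFD 1 to 3. HFD-inulin 3 was near the lowest value, so the difference of 0.30 had an SE of 0.19. It was 0.52 without HFD-inulin 3 and -0.11 in HFD-inulin 3 against HFD 2 and 3. Med10 (0.24, SE 0.12), Med4 (0.24, SE 0.11) and Med9 (0.17, SE 0.08) followed, each with overlap between groups and a limma adjusted p of 0.902. Med10 has a second, dimmer probe set that gave 0.12. Med1, the nuclear receptor coactivator, was the middle gene with a lower mean. It measured 3.65, 3.79 and 3.63 against 3.77, 3.76 and 3.64, a difference of -0.04 (SE 0.08) whose 95% interval ran from -0.22 to 0.14. Of 9 middle genes 8 were higher in mean, with a median of 0.12, which was 0.09 in HFD-inulin 1 and 2 against HFD 1 and -0.02 in HFD-inulin 3 against HFD 2 and 3.

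The scaffold gene had a lower mean, and tail genes lay on both sides of 0. Med14, which links head, middle and tail, measured 3.65, 3.52 and 3.70 in HFD-inulin 1 to 3 and 3.79, 3.74 and 3.62 in HFD 1 to 3, a difference of -0.09 (SE 0.08) with overlap. Among 9 tail genes the median was 0.07, and the range ran from -0.02 for Med15 (SE 0.08), whose product binds SREBP factors, to 0.14 for Med24 (SE 0.09). Med23, a tail gene whose product binds activators, differed by -0.02 (SE 0.07, 95% interval -0.18 to 0.14). The signs of Med15 and Med23 turned to positive after median centring, at 0.0092 and 0.016. In HFD-inulin 3 all 9 tail genes lay below their HFD mean.

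Kinase module genes were lower in mean in 3 of 4, with a median of -0.05. Med13 measured 4.76, 4.84 and 4.74 in HFD-inulin 1 to 3 and 4.93, 4.88 and 4.74 in HFD 1 to 3, a difference of -0.07 (SE 0.08). Med13l, its paralog, measured 3.50, 3.59 and 3.66 against 3.69, 3.75 and 3.62, a difference of -0.10 (SE 0.07, limma adjusted p = 0.909). Both overlapped between groups, and both stayed below 0 when any 1 array was left out. Med12 differed by -0.03 (SE 0.06), turning to 0.0052 after median centring, and its paralog Med12l by 0.00 (SE 0.09). The module mean per array was -0.05, -0.03 and -0.07 in HFD-inulin 1 to 3 and 0.02, 0.02 and -0.04 in HFD 1 to 3, so HFD-inulin 1 and 2 were not its high arrays. The 25 Mediator genes outside it averaged 0.12, 0.17 and -0.03 in HFD-inulin 1 to 3. Whether the kinase module differs from the rest of Mediator was not tested. Of the module's partners, Cdk8, its kinase, measured 4.75, 4.63 and 4.68 against 4.76, 4.82 and 4.79, lower without overlap (-0.11, SE 0.06, limma adjusted p = 0.902). Ccnc, the cyclin gene, differed by 0.15 (SE 0.16). Cdk19, also a partner and named after its values were seen, differed by 0.02 (SE 0.10), with overlap. Its difference was -0.21 in HFD-inulin 1 and 2 against HFD 1 and 0.25 in HFD-inulin 3 against HFD 2 and 3.

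Set against each other array by array, the mean deviation of RNA polymerase genes was above that of Mediator genes in each HFD-inulin array. The mean deviation of RNA polymerase minus that of Mediator was 0.07, 0.09 and 0.04 in HFD-inulin 1 to 3 and 0.02, -0.04 and 0.03 in HFD 1 to 3. The groups did not overlap on this measure, which carries no test since the members were chosen with results known. Their median differences were 0.04 apart, a gap that stayed positive, from 0.03 to 0.08, in all 16 alternatives computed. The 9 genes of subunits that only polymerase III holds did not share this. They averaged 0.06, 0.13 and -0.03 in HFD-inulin 1 to 3, against 0.09, 0.14 and -0.03 for Mediator. Those only of polymerase II averaged 0.22, 0.26 and 0.09, and those shared by all 3 enzymes 0.41, 0.35 and -0.04. RNA polymerase minus Integrator gave 0.05, -0.01 and 0.04 against 0.03, -0.05 and 0.03, with overlap, and Integrator minus Mediator gave 0.02, 0.11 and -0.0052 against -0.01, 0.01 and 0.00041. The order of RNA polymerase and Integrator was not settled, since their medians were 0.01 apart and the sign turned in 6 of 16 alternatives. Among these, the alternative with current symbols added genes to Integrator only.

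**Figure D4:**
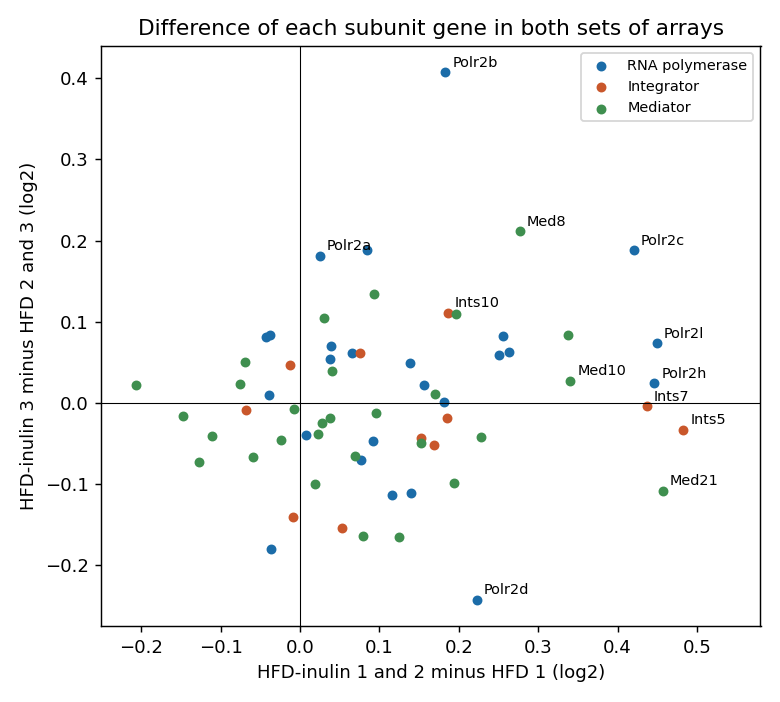
Log2 difference of each of the 65 genes in HFD-inulin 1 and 2 minus HFD 1 (horizontal axis) and in HFD-inulin 3 minus HFD 2 and 3 (vertical axis). Polr2b, Polr2c, Med8 and Ints10 are above 0 on both axes, whereas Ints7, Ints5 and Med21 are high on the horizontal axis alone.

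The sign of the difference was the same in both sets of arrays for 34 of 65 members and opposite for 31. It was opposite for 9 of 25 RNA polymerase, 7 of 11 Integrator and 15 of 29 Mediator genes, and for 8527 of the 17465 comparably bright genes. Between HFD-inulin 1 and 2 and HFD 1, 49 of 65 members were higher and the median was 0.08, where 49.9% of the comparably bright genes were higher. Between HFD-inulin 3 and HFD 2 and 3, 32 of 65 were higher and the median was -0.0042, where 51.5% of those genes were higher. By complex the second comparison gave 18 of 25 higher for RNA polymerase (median 0.05), 3 of 11 for Integrator (-0.02) and 11 of 29 for Mediator (-0.02). Polr2b was 0.18 in the first and 0.41 in the second, Polr2c 0.42 and 0.19, Med8 0.28 and 0.21, and Ints10 0.19 and 0.11. Ints7 was 0.44 and -0.0042, and Polr2l 0.45 and 0.07. Each comparison has 1 array in a group, and neither called a member in limma after adjustment. An unadjusted p under 0.05 was found for 5 and 1 members, and for 5.64% and 6.58% of all probe sets.

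Other genes of the transcription machinery were counted in the same way. Of 78 measured, 54 (69.2%) had a higher HFD-inulin mean, against 52.3% of the comparably bright genes. The median difference was 0.06, and 0 passed limma's adjusted threshold. The unadjusted limma p was under 0.05 for 3 of 78, all higher. Of all probe sets 2.52%, and of the comparably bright genes 5.46%, were higher with such a p. Among 28 general factors of polymerase II 17 were higher, with a median of 0.08. Gtf2b, for the initiation factor TFIIB, measured 4.04, 4.46 and 3.86 against 3.81, 3.47 and 3.77, without overlap (0.44, SE 0.17). Gtf2a2, of TFIIA, was chosen after its values were seen and measured 2.32, 3.20 and 2.26 against 2.17, 2.23 and 2.08. HFD-inulin 2 stood well above the rest, and the difference was 0.43 (SE 0.25). Gtf2h4, of TFIIH, differed by 0.20 (SE 0.08). Of 18 elongation and pause factors 15 were higher, with a median of 0.06, among them Ctr9 (0.20, SE 0.09) and Nelfcd (0.15, SE 0.07). Among polymerase III factors the mean was higher for 10 of 16 and the median 0.02. The furthest from 0 were Gtf3c6 (0.38, SE 0.22; -0.08 in HFD-inulin 3 against HFD 2 and 3) and Snapc5 (0.26, SE 0.16). Polymerase I factors were higher in 4 of 6 and Integrator partners in 3 of 4, with medians of 0.03 each. The mitochondrial polymerase and its factors were higher in 3 of 3, at 0.07 for Polrmt, 0.14 for Tfam and 0.19 for Tfb2m. The limma adjusted p of each gene named in these lists was at least 0.902.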

How the data were processed

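The deposited table gives 6 columns of log2 signals. The submitters' processing notes name Affymetrix Expression Console 1.0 for them, and how probes were summarized, corrected or filtered is not given in the sources used here. Their range (-0.13 to 12.1) is that of a log2 scale. Array medians ran from 1.17 to 1.26. Probe sets were named by platform symbols: 30604 had 1 symbol, 2146 several and 33206 none. The groups were compared with limma 3.58.1 (R 4.3.3, lmFit and eBayes, no filter or covariate) over all 65956 probe sets. A first run on simulated data recovered 23 of 50 planted log2 changes of 0.585 and 42 of 50 of 1, with 10 false calls. Its noise was independent between arrays, without the split seen in these arrays. It therefore does not show what limma would recover here. The largest member difference was 0.44. No detection limit is stated, and the number of arrays limits precision. Members, lists and the rule for named genes (fixed anchor genes, the 5 smallest p per complex, paralog pairs, the extremes of each module and 2 genes per other list) were chosen with earlier results of these data known. Alternatives were another variance prior, ordinary least squares, array weights, quantile normalization, leaving out dim probe sets, centring arrays on their medians, the replicate number or the array split as a block, each array left out, each set of arrays alone, probe set means and current symbols. Pandas 2.3.3 and matplotlib 3.10.9 were used for tables and figures.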

Additional observations from a re-analysis of the deposited data

How the results depend on the processing

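No member passed limma's adjusted threshold under any of 18 alternatives, and a trended robust prior called 4 probe sets, 0 of them members, where the main setting called 0. The unadjusted count of 4 (5.15% of all probe sets in either direction) was 10 with array weights (7.46%) and 1 in HFD-inulin 3 against HFD 2 and 3 (6.58%), and ran from 2 to 20 when each array was left out. It was 3 with the replicate block, which changed no adjusted call. Deviations of same-numbered arrays correlated at 0.26, -0.28 and 0.40, so the numbers were not read as pairs. The groups were apart for 4 members after quantile normalization (6.15%, against 9.57% of all probe sets). They were apart for 10 to 34 members without 1 array (15.4% to 52.3%). Without 1 array 17.8% to 27.0% of all probe sets were apart, against 10.3% in the main setting. Leaving out an array gave medians of 0.049 to 0.20 for Integrator, 0.038 to 0.091 for Integrator minus Mediator and -0.035 to 0.026 for RNA polymerase minus Integrator. The last was -0.011 after quantile normalization and -0.037 in HFD-inulin 1 and 2 against HFD 1. In HFD-inulin 3 against HFD 2 and 3 it was 0.073. With current symbols it was -0.0068, where 4 Integrator genes were added but no RNA polymerase gene. Twistnb and Znrd1 were not among the genes renamed there. Integrator minus Mediator was 0.11 in HFD-inulin 1 and 2 against HFD 1.

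Of 1054 values of single genes, 47 changed sign. In HFD-inulin 3 against HFD 2 and 3 the medians were -0.019 for Integrator and -0.019 for Mediator, and the genes were Ccnc (-0.11), Gtf3c6 (-0.079), Ints1 (-0.019), Ints2 (-0.043), Ints3 (-0.14), Ints4 (-0.052), Ints5 (-0.034), Ints7 (-0.0042), Med12 (0.023), Med12l (-0.17), Med14 (0.022), Med21 (-0.11), Nabp1 (0.073), Polr1b (-0.11), Polr2d (-0.24), Polr2e (-0.11), Polr3b (-0.047) and Twistnb (-0.012). In HFD-inulin 1 and 2 against HFD 1 they were Ints3 (-0.0091), Ints9 (0.053), Med15 (0.079), Med17 (-0.069), Med23 (0.019), Polr3a (-0.043), Polr3gl (-0.038) and Ttf1 (-0.13). With the array split as a block they were Ints3 (-0.075), Med12l (-0.020), Med17 (-0.0096) and Polr2d (-0.010), and after median centring Ints6 (0.0056), Med12 (0.0052), Med15 (0.0092) and Med23 (0.016). Leaving out an array gave ranges across 0 for Ccnc (-0.00034 to 0.29), Ints3 (-0.11 to 0.20), Med12l (-0.062 to 0.076), Med15 (-0.072 to 0.037), Med17 (-0.052 to 0.050), Med23 (-0.050 to 0.029), Polr2d (-0.030 to 0.24) and Polr2e (-0.076 to 0.16). The cause of these changes was not tested.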
